A study of Mus musculus with 11 samples.

Results

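Ribosomal protein mRNAs were followed across 4 genotypes of NIH/3T3 cells, a widely used fibroblast line from mouse embryos. The genes were chosen by symbol: Rpl or Rps followed by a number, with the suffixes a, x, y or l allowed, plus Rplp0, Rplp1, Rplp2 and Rpsa. Rps6k kinases and the 4 rows with pseudogene symbols were left out. The rule found 83 of the 21684 genes in the count table, 32 of the small (40S) subunit and 51 of the large (60S) subunit. It used no measured value. Of these, 81 passed the filter on low counts and were tested among 13332 genes.

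The cells were wild type (WT, 2 libraries) or knockouts labelled Xap5 KO, Nono KO and Sox5 KO (3 libraries each). Every group had grown for 24 h in standard medium and then for 24 h in serum-free medium, a condition in which fibroblasts form a primary cilium. Xap5 is the label's name for Fam50a, a nuclear protein. Nono is an RNA- and DNA-binding protein of paraspeckles, and Sox5 is an HMG-box transcription factor. The study set each knockout line beside WT to define genes under these 3 proteins during ciliogenesis. How the knockouts were made, and whether a line is 1 clone, is not given in the sources used here. Each line therefore stands for 1 genotype, and a difference between lines cannot be told apart from a difference between clones. The labels do not say that replicates were separate cultures, so the p-values measure the spread between these libraries, which may be technical.

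The cytosolic ribosome is built from ribosomal RNA and a fixed set of proteins, made in near-equal amounts and assembled in the nucleolus. Their mRNAs are short and abundant, and most begin with a cytosine followed by a run of pyrimidines, the terminal oligopyrimidine (TOP) motif. When growth signals through mTORC1 fall, as in cells without serum, LARP1 and the 4E-BP proteins hold TOP mRNAs out of translation, and those mRNAs are stored rather than degraded. Ribosomal proteins made in excess of ribosomal RNA are degraded, and free Rpl5 and Rpl11 bind the p53 regulator Mdm2.

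Promoters of 63 of the 83 genes were found in RefSeq (GRCm38.p6), each with 250 bases before and 50 after an annotated start. At 13 of these 63 (20.6%) an annotated start was a cytosine followed by at least 4 pyrimidines (C or T), against 2.72% of 10335 other tested genes. The windows of 5 genes are shown because they hold this start and belong to genes described next, among them the very noisy Rps27 and the highest gene per length, Rps6. Each runs from 30 bases before the start to 20 after it, 5′ to 3′ on the gene's strand, and capitals mark the pyrimidine run from the start site.
Rps6, chr4:86857348-86857397 (-): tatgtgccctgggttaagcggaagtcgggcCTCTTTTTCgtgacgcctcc
Rpl38, chr11:114668550-114668599 (+): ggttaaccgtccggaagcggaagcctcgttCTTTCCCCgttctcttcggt
Rpl35a, chr16:33056452-33056501 (+): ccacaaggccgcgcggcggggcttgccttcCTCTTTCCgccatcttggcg
Rps27, chr3:90213629-90213678 (-): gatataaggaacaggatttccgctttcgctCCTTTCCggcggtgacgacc
Rplp2, chr7:141447621-141447670 (+): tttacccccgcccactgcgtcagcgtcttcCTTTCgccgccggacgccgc
The run was 9 bases long at Rps6, 8 at Rpl38 and Rpl35a, 7 at Rps27 and 5 at Rplp2. A gene whose annotated start lies a few bases from the one used in these cells would not be counted, so an absent run says only that these letters do not stand at this position. The 13 genes with the run had a median log2 fold change of 1.37 in Sox5 KO against WT, and the 48 tested genes with a promoter but without the run had 1.23.

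Libraries held 30205878 to 43498383 counts. Levels are given as CPM, the count scaled to the library size after TMM factors. Fam50a stood at 62.9 to 64.8 CPM in WT and 7.49 to 7.91 in Xap5 KO, and Nono at 351 to 357 and 27.6 to 34.0 in Nono KO, each lower than in any other group. Sox5 stood at 45.9 to 49.7 CPM in WT and 12.6 to 13.9 in Sox5 KO, but also at 11.9 to 15.02 in Xap5 KO and 7.01 to 8.75 in Nono KO, so its mRNA does not set the libraries labelled Sox5 KO apart from the other knockouts. All 11 fibroblast markers were above 1 CPM in every group. Their sum was 24662 to 24799 CPM in WT and 18868 to 20201 in Xap5 KO. It was 49482 to 54221 CPM in Nono KO and 20923 to 21325 in Sox5 KO. Of the 11, 8 were called higher and none lower in Nono KO. In Sox5 KO 7 were higher and 3 lower, and in Xap5 KO 3 and 5. Over all tested genes 23.5% were called higher and 25.1% lower in Nono KO. These shares were 30.6% and 30.3% in Sox5 KO, and 23.2% and 22.3% in Xap5 KO. Summed leukocyte markers were at 1.91 to 2.28 CPM in WT, 3.01 to 3.38 in Xap5 KO, 7.25 to 10.9 in Nono KO and 1.88 to 2.68 in Sox5 KO, with Cd3e at 0 in every group, while epithelial markers reached at most 0.40 CPM and endothelial markers 2.79 (in Nono KO). Mitochondrially encoded genes took 6.20 to 6.28% of counts in WT, 7.89 to 10.3% in Xap5 KO, 7.10 to 7.98% in Nono KO and 6.06 to 6.92% in Sox5 KO. The part of these differences in the results was not tested.

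The summed ribosomal protein mRNA level was lowest in Xap5 KO and highest in Sox5 KO. The 83 genes together gave 23141 and 23201 CPM in the WT libraries. They gave 21079, 21831 and 21942 CPM in Xap5 KO, 32610.0, 29934 and 29254 in Nono KO, and 49666, 54468 and 48019 in Sox5 KO. The 4 groups did not overlap, and the Xap5 KO, Nono KO and Sox5 KO means were 0.933, 1.32 and 2.19 times that of WT. As a share of all gene counts, the genes took 2.47% in both WT libraries, 2.12 to 2.29% in Xap5 KO, 2.78 to 3.11% in Nono KO and 4.74 to 5.32% in Sox5 KO. The subunits moved in parallel: the summed small subunit level was 0.632 to 0.668 of the summed large subunit level in the 11 libraries. These are shares of the RNA in bulk samples, in which fewer cells of a type, less RNA per cell and less of the other RNAs cannot be told apart.

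**Figure D1:**
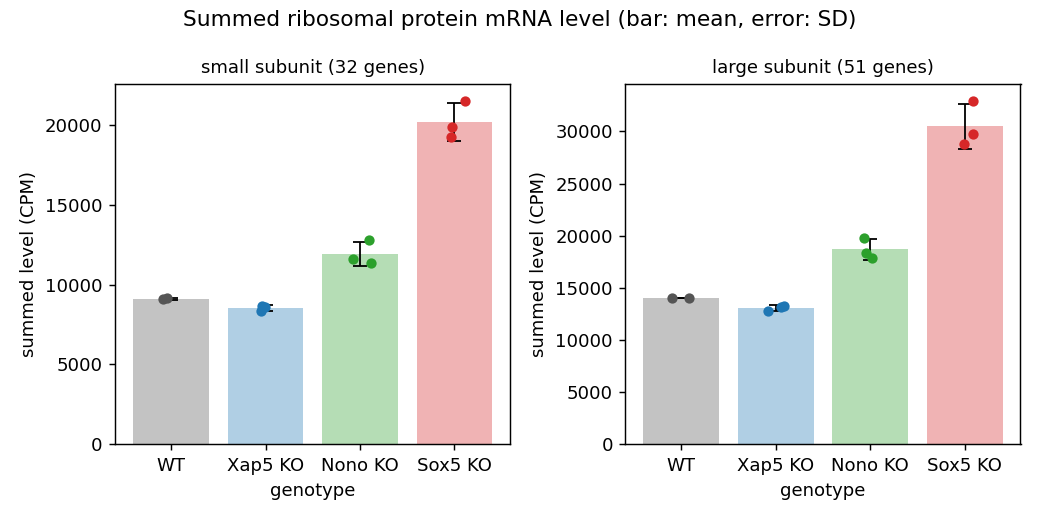
Summed level in CPM of the small subunit genes (left) and large subunit genes (right) by genotype. Points are libraries, bars are group means from 0 and error bars are SDs (n = 2 for WT, n = 3 for each knockout). Sox5 KO libraries stand highest in both panels and Xap5 KO libraries lowest.

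The higher level in Sox5 KO was spread over nearly all of the genes. In 75 of the 81 tested genes (92.6%), all Sox5 KO libraries stood above all 8 other libraries, against 19.7% of all tested genes, and 79 had their highest group mean in Sox5 KO. The order Xap5 KO, WT, Nono KO, Sox5 KO from lowest to highest mean held for 47 genes. For the counts of 79 and 47 the share over all tested genes was not computed, so they are descriptions only.

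**Figure D2:**
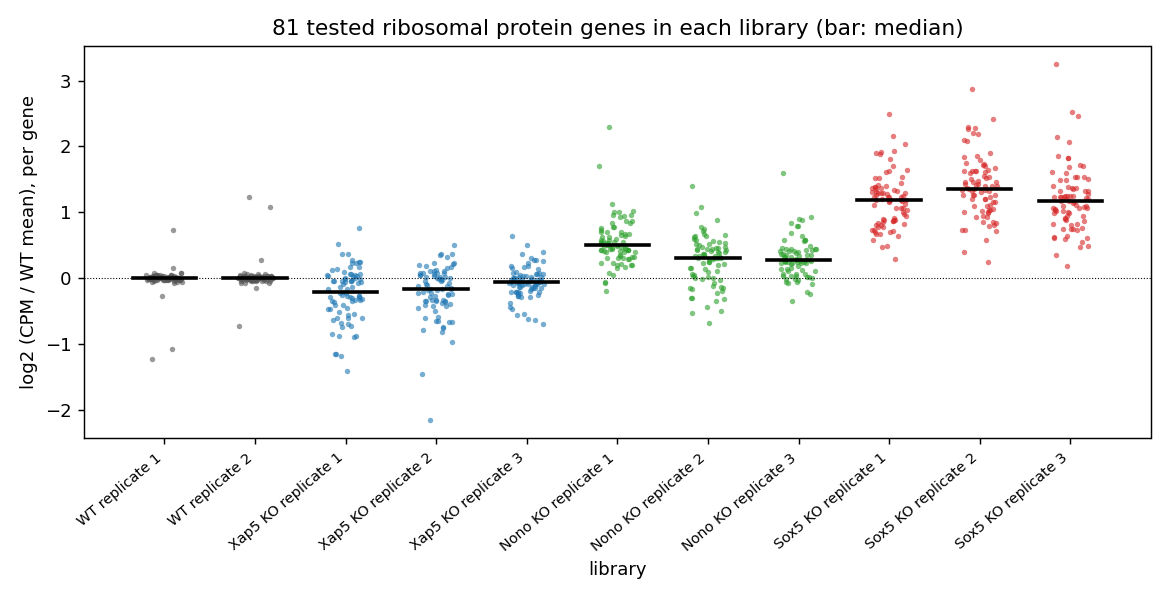
Each point is 1 of the 81 tested ribosomal protein genes in 1 library, as the log2 ratio of its CPM to the mean of the WT libraries. Black bars are medians, which run from 1.17 to 1.36 in Sox5 KO and from -0.21 to -0.07 in Xap5 KO.

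Against WT, nearly the whole set was higher in Sox5 KO. A gene was called at a Benjamini-Hochberg adjusted p under 0.05 over all 13332 genes in edgeR's quasi-likelihood test. By that rule 78 of the 81 genes were higher in Sox5 KO and none was lower, where 30.6% of all tested genes were called higher and 30.3% lower. Of the 78, 75 were at least 1.5-fold higher, which held for 17.5% of all tested genes. On library totals alone 76 were higher and none lower, where the split over all genes was 25.1% and 36.0%. The median log2 fold change was 1.26 (range 0.24 to 2.60), against -0.01 over all tested genes. By subunit, 30 of 32 small subunit genes (median 1.31) and 48 of 49 large subunit genes (median 1.18) were higher. The 3 that did not pass the test were Rpl17 at 1.14, Rps29 at 1.53 and Rps27 at 2.05.

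The highest called values in Sox5 KO were those of Rps27a, Rpl30, Rpl7a, Rpl38, Rpl35a and Rps27l. Rpl30, a large subunit protein that binds its own transcript in yeast, stood at 15.3 and 15.3 CPM in WT, 15.7, 14.4 and 15.4 in Xap5 KO, 23.1, 18.8 and 18.5 in Nono KO and 53.6, 70.5 and 87.7 in Sox5 KO. Its 3 Sox5 KO libraries were above every other library, and the log2 fold change was 2.21 ± 0.17 (SE; edgeR quasi-likelihood adjusted p = 5.49e-08), or 4.62-fold. Rps27l, a paralog of Rps27 and a p53 target, stood at 25.0 and 25.5 CPM in WT, 26.4, 29.7 and 39.1 in Xap5 KO, 51.2, 39.7 and 40.7 in Nono KO and 94.9, 87.4 and 89.1 in Sox5 KO. Its Sox5 KO libraries were again separate from the rest, at 1.84 ± 0.15 (adjusted p = 7.11e-08 in the same edgeR test). Rpl38, known for its part in translating Hox mRNAs, stood at 31.8 and 33.7 CPM in WT, 29.9, 20.7 and 31.2 in Xap5 KO, 63.6, 41.5 and 38.9 in Nono KO and 88.8, 175 and 118 in Sox5 KO. Its Sox5 KO libraries were the 3 highest but differed among themselves, so the SE was larger (1.96 ± 0.36, edgeR adjusted p = 0.00218). Rpl7a, a large subunit protein, was at 1.99 ± 0.27 (edgeR adjusted p = 0.000346).

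Rps27a, which is made as a fusion of ubiquitin with a small subunit protein, had the highest value and one of the widest spreads. Its levels were 68.0 and 61.4 CPM in WT, 92.6, 45.4 and 60.8 in Xap5 KO, 316, 59.7 and 194 in Nono KO and 239.7, 317 and 617 in Sox5 KO. Nono KO replicate 2 lay just below both WT libraries, while Nono KO replicates 1 and 3 were far above them. Sox5 KO replicate 3 was far above the other replicates of its group, and Nono KO and Sox5 KO overlapped. The value in Sox5 KO was 2.60 ± 0.77 (edgeR adjusted p = 0.0211), and the call was lost without WT replicate 1 (adjusted p = 0.0964), without WT replicate 2 (0.111) and without Sox5 KO replicate 3 (2.11, edgeR adjusted p = 0.0519). Fau, a ubiquitin-like fusion with a small subunit protein, does not fall under the symbol rule and was at 1.20 ± 0.081 in Sox5 KO against WT (edgeR adjusted p = 1.18e-10).

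The lowest called values in Sox5 KO belonged to Rpl7l1, Rps7, Rps3a1, Rpl22, Rpl3 and Rps6. Rps7, a small subunit protein that also binds Mdm2, stood at 289 and 277 CPM in WT, 233, 241 and 234 in Xap5 KO, 399.8, 383 and 375 in Nono KO and 392, 373 and 361 in Sox5 KO. Nono KO and Sox5 KO overlapped, both were above WT, and the value in Sox5 KO was 0.41 ± 0.058 (edgeR adjusted p = 2.97e-06). Rps6, the small subunit protein that S6 kinases phosphorylate, stood at 928 and 948 CPM in WT, 1021, 987 and 871 in Xap5 KO, 1317, 1384 and 1202 in Nono KO and 1537, 1549 and 1417 in Sox5 KO. Its order of groups was that of the summed level for Nono KO and Sox5 KO, while the Xap5 KO libraries lay on both sides of WT, and its value in Sox5 KO was 0.68 ± 0.074 (edgeR adjusted p = 6.97e-08). Rpl7l1, a paralog of Rpl7 with a role in ribosome assembly, was at 0.24 (edgeR adjusted p = 0.0056), beside 1.14 for Rpl7 (edgeR adjusted p = 2.86e-12).

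**Figure D3:**
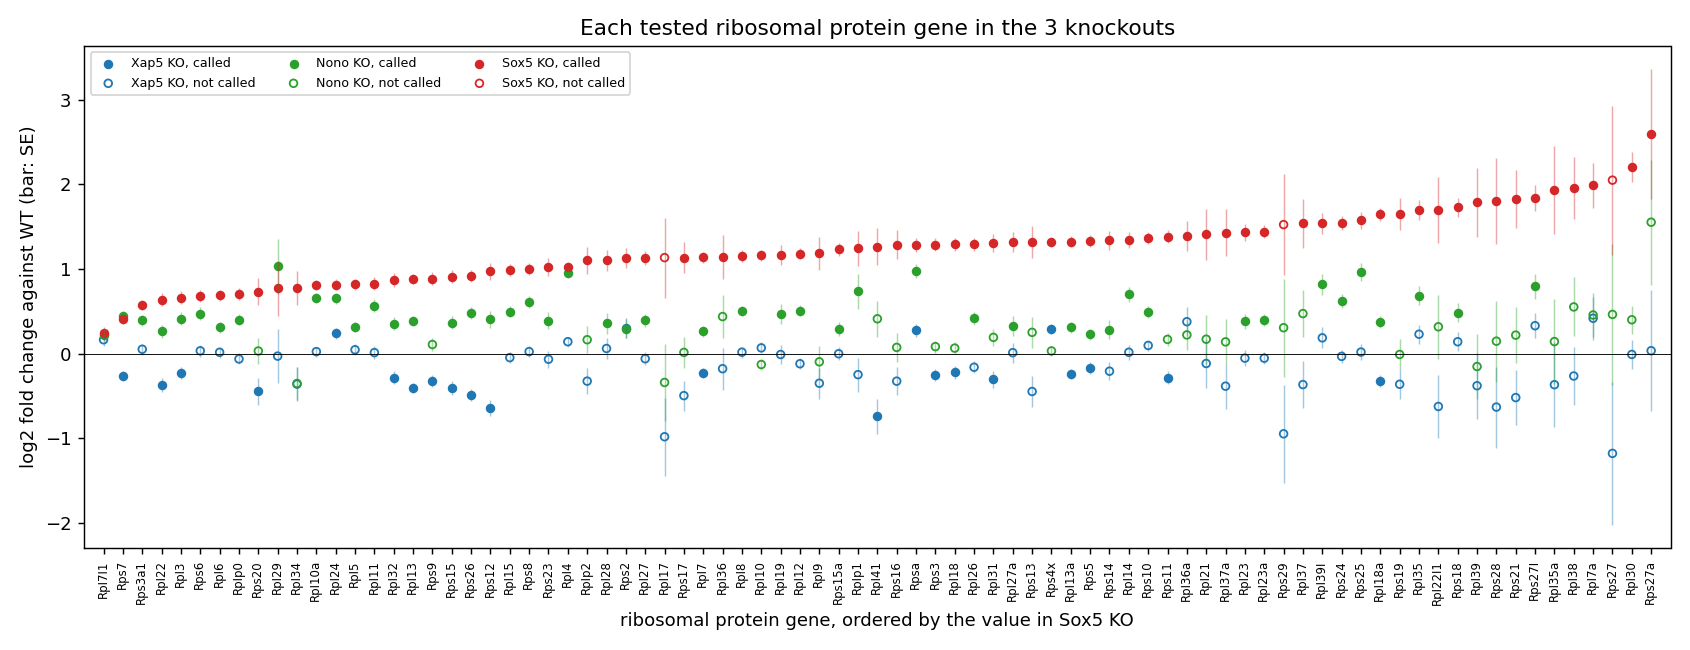
Log2 fold change against WT of each tested ribosomal protein gene in Xap5 KO (blue), Nono KO (green) and Sox5 KO (red), ordered by the Sox5 KO value. Filled points passed the edgeR test at an adjusted p under 0.05, bars are SEs, and the 3 comparisons share the WT libraries. All red points lie above 0, from 0.24 to 2.60.

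In Nono KO the set was also higher, by less. Called higher were 48 of 81 genes and called lower none, where 23.5% of all tested genes were called higher and 25.1% lower. The median was 0.38, against -0.02 over all genes, and 13 genes were called and at least 1.5-fold higher, which held for 11.7% of all genes. By subunit, 18 of 32 small and 30 of 49 large subunit genes were higher. On library totals alone 35 were higher and 2 lower (median 0.22), where the split over all genes was 16.2% and 37.4% and their median -0.18. Highest among the called were Rpl29, Rpsa, Rps25, Rpl4, Rpl39l and Rps27l.

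Rpsa, a small subunit protein also known as the laminin receptor, stood at 654 and 673 CPM in WT, 858, 853 and 698 in Xap5 KO, 1290.2, 1401 and 1239 in Nono KO and 1675, 1663 and 1530.0 in Sox5 KO. WT, Nono KO and Sox5 KO did not overlap, and the value in Nono KO was 0.98 ± 0.081 (edgeR adjusted p = 3.37e-09). Rps25, a small subunit protein needed by some viral internal ribosome entry sites, stood at 155 and 149 CPM in WT, 132, 157 and 173 in Xap5 KO, 332, 279 and 279 in Nono KO and 464, 462 and 431 in Sox5 KO, with 0.97 ± 0.10 in Nono KO (edgeR adjusted p = 1.71e-06). Rpl4, a large subunit protein at the exit tunnel, stood at 827 and 819.6 CPM in WT, 922, 941 and 859.9 in Xap5 KO, 1572, 1640.4 and 1563 in Nono KO and 1685, 1710.3 and 1625 in Sox5 KO. Its replicates were the closest of all tested members, and it was at 0.95 ± 0.06 in Nono KO (edgeR adjusted p = 2.52e-11) and 1.02 ± 0.06 in Sox5 KO. Rpl29 was at only 2.06 and 1.97 CPM in WT and 3.45, 5.33 and 3.59 in Nono KO, and its call was lost without WT replicate 1 (edgeR adjusted p = 0.0501), WT replicate 2 (0.0644) or Nono KO replicate 2 (0.0643).

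All 7 tested members on chromosome 9 rose in Nono KO, and 5 of them (Rpl29, Rpsa, Rps25, Rpl4 and Rps27l) were among the 6 highest called. The 727 other tested genes of that chromosome had a median of 0.35 there, while the 434 of the X chromosome had -0.33. The 4 X-linked members, Rpl10, Rps4x, Rpl36a and Rpl39, had a median of -0.05 in Nono KO and none was called. With an offset for the median of the other genes on each chromosome, Rpsa was at 0.63 (edgeR adjusted p = 2.99e-06), Rpl4 at 0.60 (adjusted p = 5.46e-08) and Rps4x at 0.42 (edgeR adjusted p = 7.92e-06). Rpl29 no longer passed (0.68, edgeR adjusted p = 0.0896). Under that offset 53 genes were called higher and none lower, where 23.2% and 21.3% of all genes were, and 78 of the 81 genes stood above the median of the other genes on their own chromosome. In Sox5 KO all 81 stood above it, and 78 were called higher and none lower under the offset, where 29.7% and 28.3% of all genes were.

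Xap5 KO showed a small shift the other way. Called lower were 19 genes and called higher 4, a share of lower calls (23.5%) near the 22.3% over all tested genes and a share of higher calls (4.94%) under the 23.2%. The median was -0.16, and -0.09 without WT replicate 2. Only 2 genes, Rpl41 and Rps12, were called and at least 1.5-fold lower, which held for 9.23% of all genes. Lowest among the called were Rpl41, Rps12, Rps26, Rps20, Rpl13 and Rps15, and the 4 called higher were Rps4x, Rps2, Rpsa and Rpl24. Among other fits, Rps2 lost its call without Xap5 KO replicate 2 (0.18, edgeR adjusted p = 0.229) or replicate 3 (0.26, edgeR adjusted p = 0.103). Rpsa lost its call without Xap5 KO replicate 2 (0.22, edgeR adjusted p = 0.052).

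Rps12, a small subunit protein known from cell competition in flies, stood at 202 and 218 CPM in WT, 137, 132 and 134 in Xap5 KO, 291, 287 and 255 in Nono KO and 366, 483 and 386 in Sox5 KO. The Xap5 KO libraries were the 3 lowest of the 11, and the value was -0.64 ± 0.095 (edgeR adjusted p = 4.81e-05). Rpl41, the shortest ribosomal protein, stood at 300.2 and 287 CPM in WT, 159.6, 166 and 200.2 in Xap5 KO, 460.2, 355 and 356 in Nono KO and 564, 889 and 661 in Sox5 KO, with -0.74 ± 0.21 (edgeR adjusted p = 0.0218). That call was lost in 4 of the 11 fits that left out a library: WT replicate 1 (0.0909), WT replicate 2 (0.0707), Xap5 KO replicate 1 (0.0614) and Xap5 KO replicate 2 (edgeR adjusted p = 0.0559). Rpl13, a large subunit protein, stood at 539 and 535 CPM in WT, 388, 412 and 413 in Xap5 KO, 732, 694 and 688 in Nono KO and 1001, 1032 and 944 in Sox5 KO, with -0.41 ± 0.058 (edgeR adjusted p = 5.72e-06) and no overlap between any 2 groups. Rps20 was called at -0.45 (edgeR adjusted p = 0.045) and lost its call without any one of 8 libraries, at adjusted p-values of up to 0.143.

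The 4 tested genes of chromosome 10 are Rpl41, Rps12, Rps26 and Rps15, all among the 6 lowest in Xap5 KO. The 639 other tested genes of that chromosome had a median of -0.46 in Xap5 KO. With the chromosome offset Rps12 was at -0.17 (edgeR adjusted p = 0.229), Rpl41 at -0.27 (adjusted p = 0.378), Rps26 at -0.01 (adjusted p = 0.935) and Rps15 at 0.07 (edgeR adjusted p = 0.562), so none kept its call. X-linked Rps4x, at 0.30 (edgeR adjusted p = 0.000338), was at -0.06 under that offset, where the 434 other tested X-linked genes had a median of 0.36. Under it 14 genes were called lower and none higher, where 18.7% and 20.3% of all genes were, and 65 of 81 genes stood below the median of the other genes on their chromosome. In fits with no offset, 4 genes were called higher with all libraries (23.2% of all genes) and 2 without Xap5 KO replicate 2 (20.3%). Without WT replicate 1 the median there was -0.15.

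The knockouts were also compared with each other. Against Sox5 KO, 80 of 81 genes were lower in Xap5 KO (median -1.40) where 30.4% of all tested genes were, and none was higher (31.1%). Against Sox5 KO, 74 genes were lower in Nono KO (median -0.92) where 32.6% of all genes were, and none was higher (30.9%). The 7 that did not pass between Nono KO and Sox5 KO were Rpl29, Rpl4, Rpl7l1, Rps7, Rps27, Rps27a and Rps29. Against Nono KO, 58 genes were lower in Xap5 KO (median -0.49) where 25.9% of all genes were. The 2 that were higher, where 27.1% of all genes were, are both X-linked: Rpl10 at 0.20 ± 0.058 (edgeR adjusted p = 0.00748) and Rps4x at 0.26 ± 0.053 (edgeR adjusted p = 0.000246). With the chromosome offset no member was called higher (22.9% of all genes) and 64 were lower (23.9%). With no offset, only 1 gene was called higher without Xap5 KO replicate 2 (24.1% of all genes) or without Nono KO replicate 2 (25.7%). These comparisons share libraries with each other and with those against WT.

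The members have short transcripts, and short transcripts in general moved with genotype in these libraries. The median transcript length (of the annotation's principal transcripts, GENCODE M21) was 827 nt for the 83 genes, 41 of them under 800 nt, against 2896 nt for 13212 other tested genes, of which 3.47% were under 800 nt. In Sox5 KO against WT, the other genes had a median of 0.66 under 800 nt (458 genes), 0.42 from 800 to 1600 nt (2007 genes), 0.11 from 1600 to 3200 nt (5024 genes) and -0.29 above that (5723 genes). The ribosomal protein genes of the same bins stood at 1.33 (41 genes), 1.14 (31), 1.29 (7) and 0.98 (2). So their values were above the other genes at every length, and the gap was smaller for the shortest ones.

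**Figure D4:**
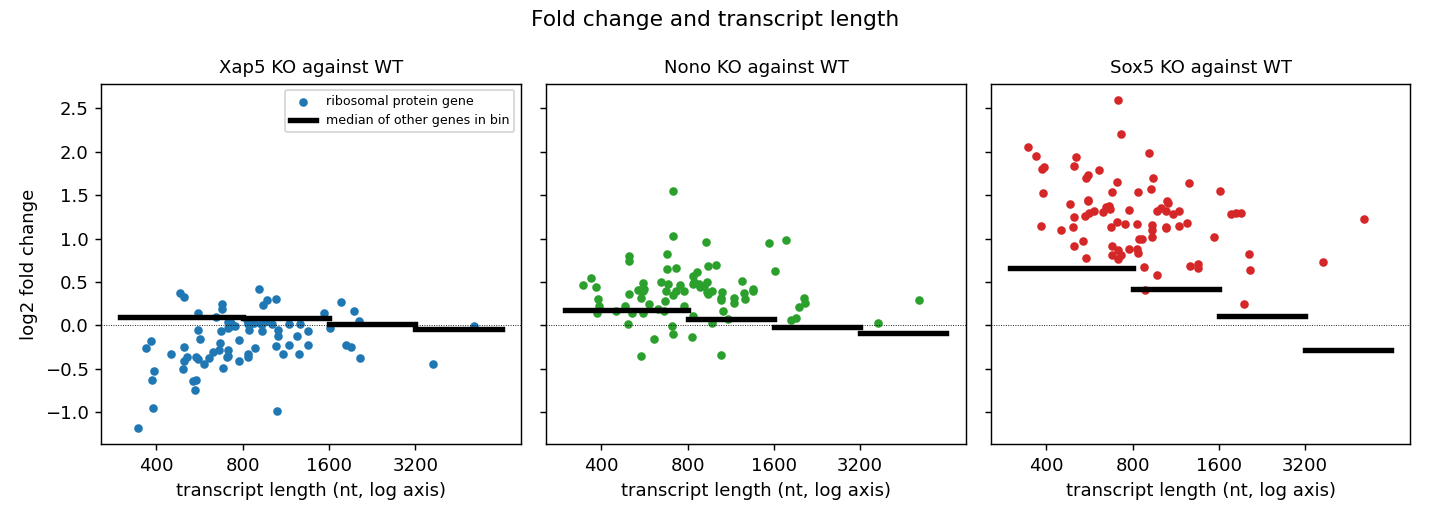
Log2 fold change against WT of each tested ribosomal protein gene (points) by transcript length on a log axis, with the median of all other tested genes in 4 length bins (black bars; the last bin is open-ended). In Sox5 KO the black bars fall from 0.66 to -0.29 while the points of each bin have medians of 0.98 to 1.33.

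In Nono KO the other genes ran from 0.18 in the shortest bin to -0.09 in the longest, and the ribosomal protein genes stood at 0.39, 0.39, 0.26 and 0.16. In Xap5 KO the other genes ran from 0.10 to -0.04, and the ribosomal protein genes stood at -0.29, 0.01, -0.03 and -0.22. Non-member genes under 800 nt took 2.54 to 2.57% of counts in WT, 3.10 to 3.69% in Xap5 KO, 2.84 to 3.14% in Nono KO and 3.46 to 3.64% in Sox5 KO. Xap5 KO was therefore above WT in short transcripts other than these and below WT in these. Mitochondrially encoded genes were not left out of that count share. At all lengths together they took 7.89 to 10.3% of counts in Xap5 KO and 6.20 to 6.28% in WT, and their part in it was not tested. Across the 81 genes, length and log2 fold change had a Pearson correlation of -0.38 in Sox5 KO, -0.02 in Nono KO and 0.31 in Xap5 KO, a description over genes that share the same libraries.

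With a per-library offset for transcript length and GC content, fitted on the other tested genes, the set moved down in every knockout. In Sox5 KO 68 genes were called higher and 1 lower, with a median of 0.70, where 31.2% and 25.1% of all genes were. In Nono KO 27 were higher and 4 lower, with a median of 0.13, where 22.8% and 25.7% of all genes were. In Xap5 KO 1 was higher and 43 lower, with a median of -0.31, where 24.4% and 23.2% of all genes were. Most genes were thus still called higher in Sox5 KO, fewer were in Nono KO, and more were called lower in Xap5 KO than without the offset. The gene called lower in Sox5 KO was Rps7 (-0.13, edgeR adjusted p = 0.0484). Rps27a lost its call there (1.99, edgeR adjusted p = 0.0555), as did Rps6 (0.13, adjusted p = 0.145), while Rpsa kept 1.03 (edgeR adjusted p = 4.02e-09) and Rpl30 1.60 (edgeR adjusted p = 1.1e-06). In Nono KO Rpsa stayed at 0.94 and Rpl4 at 0.80, and Rps12 went from 0.41 to 0.05. Between the knockouts the offset gave 79 genes lower and none higher in Xap5 KO against Sox5 KO (median -1.06), where 31.5% and 27.3% of all genes were. It gave 60 lower and 3 higher in Nono KO against Sox5 KO (median -0.68; 34.6% and 26.9% of all genes), and 59 lower and 3 higher in Xap5 KO against Nono KO (median -0.43; 26% and 28.5% of all genes). The part of transcript length in the results was not tested beyond this offset.

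Lists of other short-transcript genes had values on the same axis. The 75 tested nuclear subunits of oxidative phosphorylation, with a median length of 742 nt, were called higher in 72 and lower in none in Sox5 KO (median 0.99), 24 and 2 in Nono KO (0.17), and 25 and 4 in Xap5 KO (0.18). Over all tested genes 30.6% were higher and 30.3% lower in Sox5 KO, 23.5% and 25.1% in Nono KO, and 23.2% and 22.3% in Xap5 KO, which also holds for the lists that follow. The 78 mitochondrial ribosomal proteins, with a median length of 1255 nt, were called higher in 61 and lower in 2 in Sox5 KO (0.63), 18 and 7 in Nono KO (0.16), and 30 and 4 in Xap5 KO (0.19). Both lists lay below the cytosolic set in Sox5 KO and Nono KO and above it in Xap5 KO by their medians. The difference between lists was not tested.

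Replicate spread was widest in the shortest genes. The within-group SD of log2 CPM, pooled over the 4 groups, had a median of 0.27 for the 11 genes under 500 nt, 0.15 for 30 genes of 500 to 800 nt, 0.10 for 31 genes of 800 to 1600 nt and 0.11 for 9 longer ones. It had a Spearman correlation of -0.53 with length and -0.76 with level across the 81 genes, given as a description. Only 6 genes were above 0.5: Rps27 (0.99), Rps27a (0.81), Rps29 (0.63), Rpl35a (0.61), Rps28 (0.52) and Rpl17 (0.51).

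**Figure D5:**
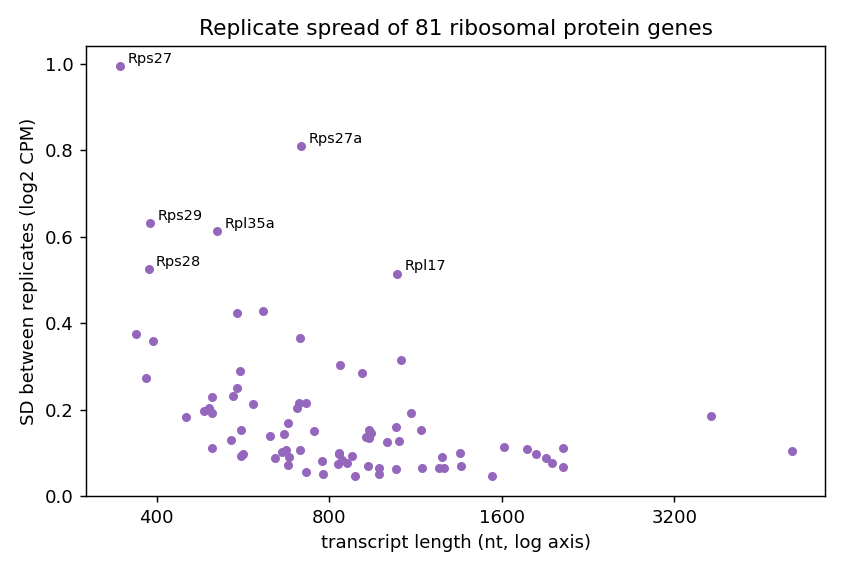
Pooled SD between replicates of log2 CPM for each of the 81 tested genes against transcript length on a log axis. The 6 genes above 0.5 are named, and most genes lie between 0.05 and 0.30.

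Rps27, a small subunit protein with a very short transcript of 345 nt, had 622 and 3731 counts in the WT libraries. Its levels were 15.4 and 84.7 CPM in WT, 24.6, 8.08 and 34.0 in Xap5 KO, 117, 47.4 and 42.6 in Nono KO and 161, 264 and 199 in Sox5 KO. Every Sox5 KO library was above all others, yet the value of 2.05 ± 0.88 missed the threshold (edgeR adjusted p = 0.0808), and without WT replicate 2 it was 3.75 (edgeR adjusted p = 0.0287). Of its 246 windows of 100 bases, 98.4% were also in Rps27rt, a gene outside the symbol rule, which stood at 78.2 and 16.9 CPM in WT, 35.2, 53.1 and 53.9 in Xap5 KO, 30.1, 51.6 and 61.1 in Nono KO and 25.9, 25.0 and 24.7 in Sox5 KO. In WT the library low in Rps27 was the one high in Rps27rt. Summed, the 2 genes gave 93.7 and 101.6 CPM in WT, 59.8, 61.2 and 87.9 in Xap5 KO, 147.5, 99.0 and 103.6 in Nono KO and 187.0, 289 and 224 in Sox5 KO, with a pooled SD of 0.29 in place of 0.99. With their counts summed before the fit, an alternative added after seeing the data, the value in Sox5 KO was 1.26 ± 0.28 (edgeR adjusted p = 0.00517), which brings the genes called higher there to 79. In Xap5 KO it was -0.49 (edgeR adjusted p = 0.183) and in Nono KO 0.26 (edgeR adjusted p = 0.476). The other 5 genes of wide spread shared 24.7% (Rps29) to 69.1% (Rps27a) of their windows with another gene.

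Rpl35a, a large subunit protein mutated in some Diamond-Blackfan anemia, had 74 and 361 counts in WT and stood at 1.84 and 8.19 CPM in WT, 4.53, 3.48 and 3.71 in Xap5 KO, 6.93, 4.80 and 4.94 in Nono KO and 21.9, 18.7 and 17.2 in Sox5 KO. The WT libraries lay on both sides of all Xap5 KO and Nono KO libraries. Its value in Xap5 KO was therefore set by 1 library. It was -0.37 with both WT libraries (edgeR adjusted p = 0.603), 1.08 without WT replicate 2 and -1.08 without WT replicate 1. With 1 library left out, the value ran from -0.55 to 1.61 in Nono KO and from 1.23 to 3.39 in Sox5 KO. In Sox5 KO it was called at 1.94 (edgeR adjusted p = 0.0113) but not with the length and GC offset (1.22, edgeR adjusted p = 0.0688).

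By role, the acidic stalk that recruits elongation factors was led by Rplp0. Rplp0 stood at 1378 and 1412 CPM in WT, 1269, 1398 and 1339 in Xap5 KO, 1877, 1879 and 1771 in Nono KO and 2256, 2436 and 2129 in Sox5 KO, at 0.70 ± 0.066 in Sox5 KO and 0.40 ± 0.066 in Nono KO (edgeR adjusted p = 8.64e-09 and 3.13e-05). Its partners rose more in Sox5 KO, Rplp1 by 1.24 and Rplp2 by 1.10 (edgeR adjusted p = 0.00122 and 0.000321), though the difference between the 3 genes was not tested. In Nono KO Rplp1 was at 0.74 (edgeR adjusted p = 0.02), a call lost without either WT library or Nono KO replicate 3, and Rplp2 at 0.16 (edgeR adjusted p = 0.434). The stalk genes had no call in Xap5 KO.

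Rpl5 and Rpl11, which with 5S RNA form the particle that binds Mdm2, had the same calls in each knockout. Rpl5 stood at 466 and 485 CPM in WT, 474, 513 and 485 in Xap5 KO, 609, 597 and 571 in Nono KO and 813, 906 and 798 in Sox5 KO, and Rpl11 at 209 and 218 CPM in WT, 205, 221 and 218 in Xap5 KO, 339, 310.2 and 297 in Nono KO and 352, 423 and 361 in Sox5 KO. In Sox5 KO both were above every other library, at 0.82 ± 0.064 and 0.83 ± 0.076 (edgeR adjusted p = 5.32e-10 and 5.6e-09), in Nono KO at 0.32 and 0.57 (both called), and in Xap5 KO at 0.05 and 0.01 (neither called). Rps19, the small subunit protein most often mutated in Diamond-Blackfan anemia, stood at 252 and 243 CPM in WT, 159.5, 186 and 231 in Xap5 KO, 283, 201 and 252 in Nono KO and 803, 807 and 714 in Sox5 KO. Its Nono KO libraries lay on both sides of WT (-0.01 ± 0.18, edgeR adjusted p = 0.976), and all Sox5 KO libraries were far above (1.65 ± 0.19, edgeR adjusted p = 8.47e-05).

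Among paralog pairs, the minor copies did not follow 1 pattern. Rpl10l, a copy known from the male germ line, had 0 counts in all 11 libraries, which allows up to 3 counts in each. Rpl3l, the muscle copy of Rpl3, had 16 counts in Xap5 KO replicate 1 and 0 elsewhere. Rpl22l1 rose by 1.70 in Sox5 KO (edgeR adjusted p = 0.00632) beside 0.64 for Rpl22 (edgeR adjusted p = 8.63e-07), and its call was lost without WT replicate 2 (1.56, edgeR adjusted p = 0.0534). Rpl39l stood at 33.5 and 31.3 CPM in WT, 31.6, 36.2 and 42.8 in Xap5 KO, 64.9, 50.6 and 56.3 in Nono KO and 85.5, 103 and 94.1 in Sox5 KO, higher in both Nono KO (0.82 ± 0.12) and Sox5 KO (1.54 ± 0.13), with edgeR adjusted p-values of 3.7e-05 and 1.77e-08. Rpl39, its X-linked parent copy, stood at 87.7 and 85.5 CPM in WT, 47.1, 54.2 and 98.4 in Xap5 KO, 106, 54.1 and 73.2 in Nono KO and 251, 369.7 and 278 in Sox5 KO, with -0.15 in Nono KO (not called) and 1.79 in Sox5 KO (edgeR adjusted p = 0.00639). Rpl36al, which lies outside the symbol rule, was at 0.54 in Sox5 KO beside 1.39 for X-linked Rpl36a.

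Levels between genes were compared per 1000 nt of transcript. In WT they ran from 2.84 CPM per 1000 nt for Rpl29 to 1068 for Rps6, with a median of 265 and middle values between 142 and 471. After Rps6 the highest were Rplp0 (1027), Rps3a1 (889), Rpl10 (798) and Rplp1 (752), and after Rpl29 the lowest were Rpl35a (9.83), Rpl34 (15.3), Rpl30 (21.0) and Rps2 (24.7). Genes for proteins needed in near-equal amounts thus differed widely in counted mRNA. Ribosomal protein genes have many processed pseudogenes, and how reads matching several genes were counted is not given in the sources used here. Of the 81 genes, 34 shared at least 50% of their 100-base windows with another annotated gene, 33 shared 10 to 50% and 14 less. Median WT levels in these classes were 307, 281 and 175 CPM per 1000 nt. The shared percentage and this level had a Spearman correlation of 0.11 across the 81 genes, given as a description. The part of shared sequence in the levels was not tested. Sox5 KO medians in these classes were 1.15, 1.29 and 1.26, with 33 of 34, 31 of 33 and 14 of 14 genes called higher. Exons of 27 of the 83 genes overlapped another gene on the same strand, in 17 cases with a small nucleolar RNA among them, and exons of 19 overlapped one on the opposite strand, so counts of the 38 genes with either are uncertain.

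Counts for other genes of the pathway are read against the shares of all tested genes, 30.6% higher and 30.3% lower in Sox5 KO, 23.5% and 25.1% in Nono KO, and 23.2% and 22.3% in Xap5 KO. Of 16 translation factors with TOP mRNAs, 12 rose and none fell in Sox5 KO (median 0.65), 12 rose and none fell in Nono KO (0.33), and 2 rose and 6 fell in Xap5 KO (-0.02). Elongation factor subunit Eef1g was at 1.46 ± 0.066 in Sox5 KO (edgeR adjusted p = 8.06e-14), and Eef2 at -0.08 ± 0.062 (adjusted p = 0.29) beside -0.59 ± 0.061 in Xap5 KO (edgeR adjusted p = 9.24e-08). Rack1, a 40S scaffold outside the symbol rule, was at 1.24 in Sox5 KO and 0.47 in Nono KO (edgeR adjusted p = 5.73e-13 and 1.88e-06). Of the other such components given here, Fau and Rpl36al also rose in Sox5 KO, and Rps27rt was at -0.91 (edgeR adjusted p = 0.224). Of 77 ribosome biogenesis factors, 45 rose and 13 fell in Sox5 KO (median 0.30), 25 and 12 in Nono KO (0.09), and 15 and 20 in Xap5 KO (-0.02). Of 34 components of RNA polymerases I and III, 11 rose and 12 fell in Sox5 KO, 4 and 6 in Nono KO, and 9 and 5 in Xap5 KO, and the Sox5 KO counts are near the share of all genes. Of 17 assembly chaperones and import factors, 13 and 3, 3 and 5, and 6 and 2 did so, in the order Sox5, Nono and Xap5 KO.

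Among 20 regulators of TOP mRNAs, 9 rose and 9 fell in Sox5 KO, 4 and 5 in Nono KO, and 5 and 6 in Xap5 KO, the last 2 pairs near the shares of all genes. Only some of the 20 are named here. Of the 4E-BP genes, Eif4ebp1 stood above both WT libraries in every knockout library, and Eif4ebp2 stood below them. Eif4ebp1, an mTORC1 target that represses cap-dependent translation, stood at 77.9 and 81.5 CPM in WT, 96.5, 93.4 and 85.9 in Xap5 KO, 117, 123 and 113 in Nono KO and 167, 170.2 and 159.9 in Sox5 KO, with 1.06 ± 0.067 in Sox5 KO (edgeR adjusted p = 1.56e-11). Eif4ebp2, a second gene of this kind, stood at 262.8 and 268.6 CPM in WT, 188, 192 and 198 in Xap5 KO, 195, 181 and 187 in Nono KO and 163, 169 and 171 in Sox5 KO and fell in Sox5 KO (-0.66 ± 0.056), Nono KO (-0.50 ± 0.056) and Xap5 KO (-0.46 ± 0.056), with edgeR adjusted p-values of 1.58e-09, 2e-07 and 7.31e-07. Larp1 was at 0.36 ± 0.062 in Xap5 KO (edgeR adjusted p = 6.73e-05) and 0.01 in Sox5 KO (not called). Myc, which activates ribosomal protein and biogenesis genes, stood at 42.5 and 38.9 CPM in WT, 55.0, 42.7 and 36.0 in Xap5 KO, 82.1, 91.5 and 73.0 in Nono KO and 67.0, 55.5 and 63.7 in Sox5 KO. It was higher in Nono KO (1.02 ± 0.16, edgeR adjusted p = 0.000327) and in Sox5 KO (0.61 ± 0.16, edgeR adjusted p = 0.00681) and not called in Xap5 KO (0.13). Myc was highest in Nono KO, and the summed ribosomal protein mRNA level was highest in Sox5 KO. The part of Myc in the results was not tested.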

How the data were processed

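RNA was measured in 11 libraries of NIH/3T3 cells (total RNA by TRIzol, NEBNext Ultra II libraries, per the labels' protocols). The authors deposited whole-number values per gene, taken here as rounded estimated counts (expected counts) since 3302 entries were a 2 but 857 a 1. The submitters' processing notes name HISAT2 2.1.0, StringTie 1.3.3b, DESeq2 1.12.4 and GRCm39/mm39, and the annotation, strand handling and counting settings are not given in the sources used here. If mates were counted separately, depths refer to mates. All columns were used.

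Genes were fitted with edgeR 4.0.16 in R 4.3.3: TMM factors, filterByExpr with a minimum count of 10 and total of 15, a robust quasi-likelihood fit of all 11 libraries with 1 mean per group, 6 contrasts, Benjamini-Hochberg adjustment over 13332 genes, calls at an adjusted p under 0.05. SE is the absolute log2 fold change over the root of F. It includes the spread between libraries. The common biological coefficient of variation was 10.6%, and floors (3 counts) cover counting error only. Scripts were tested on simulated data. Lengths, GC, chromosomes and overlaps came from GENCODE M21 (GRCm38), whose build differs from the authors', so coordinates are given only for the RefSeq promoter windows. Of 21684 gene IDs, 21540 matched. Promoter sequences are RefSeq's (GRCm38.p6).

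The members, lists and tests were chosen with earlier results of these data known. Named were, for each knockout against WT, the 6 highest and 6 lowest called members, role groups and paralog pairs, and some regulators of TOP mRNAs. Members named for spread, Rpl17, Rps28, Rps29, genes named for level per length, Rpl34, the translation factors Eef1g and Eef2, Rack1, Fau and Rps27rt were chosen after their values were seen. A gene of the lists is not reported here. Alternatives were other scalings, DESeq2 1.42.0, no filter, 2 groups only, a fold threshold, length and GC offsets (spline, 4 degrees of freedom), a chromosome offset, a replicate block, Rps27 and Rps27rt counts summed, and leaving out each library.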

Additional observations from a re-analysis of the deposited data

How the results depend on the processing

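With the length and GC offset, the same offset on the shortest principal transcript (added after seeing the data) and the replicate block with the offset, in that order, Xap5 KO against WT gave 1, 1 and 2 ribosomal protein genes called higher and 43, 44 and 36 lower, with medians of -0.31, -0.32 and -0.31. Nono KO gave 27, 27 and 31 higher and 4, 4 and 3 lower, with medians of 0.13, 0.12 and 0.15, and Sox5 KO medians of 0.70, 0.73 and 0.72, with 1 gene lower under the first. Xap5 KO against Sox5 KO had medians of -1.06, -1.08 and -1.06, and Nono KO against Sox5 KO -0.68, -0.70 and -0.68 with 3, 4 and 3 genes higher. The chromosome offset gave 0 genes higher in Xap5 KO against WT and 0 against Nono KO, and a median of -0.78 in Nono KO against Sox5 KO. Library totals alone gave 2 genes lower in Nono KO, medians of 0.22 in Nono KO and 1.15 in Sox5 KO, and summed levels of 24670 CPM in WT and 22196 in Xap5 KO. Requiring 1.5-fold left 0 higher and 2 lower in Xap5 KO, 13 higher in Nono KO, and 0 higher and 23 lower in Xap5 KO against Nono KO. On the longest transcript the median level in WT was 212 CPM per 1000 nt. Causes were not tested.

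Leaving out each library gave 1 to 6 genes higher and 13 to 23 lower in Xap5 KO (median -0.22 to -0.089), where 16.6 to 23.7% and 17 to 22.6% of all genes were. It gave 39 to 49 higher in Nono KO (median 0.30 to 0.43; 18.5 to 24.4% of all genes), 75 to 79 higher in Sox5 KO (median 1.15 to 1.31; 24.6 to 31% of all genes), 1 to 3 higher in Xap5 KO against Nono KO (24.1 to 27% of all genes), and a summed WT level of 23011 to 23307 CPM. Replicate numbers did not pair the libraries (correlations of -0.02 to 0.05 in 15 pairs). With the replicate block alone, 5 genes were higher (22.6% of all genes) and 15 lower (21.8%) in Xap5 KO, 46 higher in Nono KO (23% of all genes) and 76 higher in Sox5 KO (30% of all genes).

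Named genes changed sign in 26 of 3150 refits, counted only where the gene was called in the fit reported above, the refit or both. A change of sign without a call in either fit was not counted. In Xap5 KO, under the 3 offsets in the order above, Rpl11 was at -0.18, -0.16 and -0.16 and Rpl10 at -0.17, -0.15 and -0.17. Under the first 2, Rps25 was at -0.21 and -0.26 and Rps3a1 at -0.16 and -0.14, and under the first Rpl24 at -0.0074. With the chromosome offset Rpl10 was at -0.29, Rps4x at -0.057 and Rps15 at 0.068. Rpl35a was at 1.08 without WT replicate 2. In Nono KO, Rps4x was at -0.22, -0.19 and -0.20 under the 3 offsets, Rpl10 at 0.26 with the chromosome offset, and Rpl22 at -0.15 and Rps15a at -0.088 on the shortest transcript. In Sox5 KO, Rps7 was at -0.13, -0.11 and -0.12, and Rpl7l1 at -0.11 and Rpl22 at -0.053 on the shortest transcript. By the same rule, DESeq2, other size factors, no filter, TMM factors without the members and 2-group fits reversed none of the named genes.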

Other observations

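Promoter letters other than the pyrimidine start were counted in the same 63 matched genes and 10335 other tested genes, in 300-base windows and on both strands. CCGGAAG, the core of sites bound by ETS factors such as GABPA, stood in 41.3% of the ribosomal protein promoters and 19.2% of the others. AAGATGGC, part of sites bound by YY1, stood in 9.52% and 5.15%. GGGCGG, the Sp1 box, stood in 61.9% and 66.9%, and TATAAA in 11.1% and 9.25%. A match is a description of the letters and not a bound site.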
